A study of Mus musculus with 81 samples.

Results

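Of 81 single cells from embryonic mouse pancreas, 4 were macrophages, and these are described here against 62 stromal cells of the same plate. Both classes were selected on measured values. The macrophages, named C2, C31, C36 and C54 after the cell numbers in the labels, are the cells with Tyrobp, which encodes a signalling adaptor of myeloid cells, at 500 RPKM or more. RPKM is a read count scaled to transcript length and library size. The stromal cells had Col3a1, a fibrillar collagen of connective tissue, at 10 RPKM or more, and the epithelial gene Epcam, the endocrine gene Chga, Tyrobp and the endothelial gene Emcn each under 10 RPKM. The 4 cells of fewest reads were left out of the stromal class, and 15 cells belonged to neither class.

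Tissue macrophages arise from yolk sac and fetal liver precursors that settle in organs before birth. They depend on the receptor Csf1r, take up dead cells, debris and iron, and carry the complement component C1q, Fc receptors for antibody and a large lysosomal system. Fetal pancreatic stroma, the mesenchyme around the epithelial buds, makes matrix and growth factors.

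Pancreata came from wild-type CD1 mouse embryos, an outbred strain, at embryonic day 13.5. They were dissociated with trypsin and captured as single cells on a microfluidic chip. Full-length cDNA was amplified with SMARTer chemistry, and a Nextera XT library with its own pair of index sequences was made from each cell and read in 2 lanes. The labels name no animal and give all cells 1 group, so the 66 cells compared count as 1 sample: no test was made, no p-value is given, and every SD is a spread over cells.

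The macrophages had an estimated 2867000, 1966000, 4747000 and 2845000 reads in C2, C31, C36 and C54 (rounded), and the stromal cells had 1643000 to 4945000 reads with a median of 3538000. At least 1 RPKM was reached by 3767, 2973, 4796 and 3341 genes in the same order of macrophages, and by 2353 to 5110 genes in the stromal cells, with a median of 4035.5. Every macrophage mean rests on 4 cells.

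The values that chose the cells were farther apart for Tyrobp than for Col3a1 in RPKM. Tyrobp stood at 1239.8, 3019, 867 and 1131 RPKM in C2, C31, C36 and C54, and the next cell, C3, had 88.5 RPKM. The stromal cells reached at most 1.44 RPKM of Tyrobp. The lowest Col3a1 among the stromal cells was 10.4 RPKM, in C88, and C45, at 0.691 RPKM, was the nearest cell left out by Col3a1 alone. Below 10 RPKM but nearer to it were C43, at 5.99 RPKM, one of the 4 cells of fewest reads, and the macrophage C31, at 2.90 RPKM. For Epcam the cells next to the limit were C56, at 12.3 RPKM, and C46, at 0.630 RPKM. For Chga they were C56, at 40.7 RPKM, and C40, at 0.107 RPKM, and for Emcn C72, at 193.5 RPKM, and C4, at 0.609 RPKM.

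The label of macrophage was set beside the markers that the choice of cells did not use. These markers were picked with earlier results of these data known, so they are not an independent check. Fcer1g, the signalling chain of Fc receptors, stood at 651, 1303, 418 and 958 RPKM in C2, C31, C36 and C54, against at most 0.654 RPKM in a stromal cell. C1qb, a chain of C1q, stood at 568, 951, 42.95 and 1481 RPKM, against at most 1.10 RPKM in stromal cells. Laptm5, a lysosomal membrane protein of blood cells, stood at 288, 1093, 88.3 and 856 RPKM, against at most 29.4 RPKM in stromal cells. For all 3 genes the lowest macrophage, C36, lay above the highest stromal cell. Csf1r, the receptor for the survival factor CSF1, stood at 96.1, 379, 102 and 44.9 RPKM, against at most 0.105 RPKM in stromal cells. Cx3cr1, the receptor for fractalkine, stood at 62.8, 389, 50.03 and 244 RPKM, against at most 0.154 RPKM in stromal cells. Each of the 5 markers was thus present in every macrophage and did not overlap with the stroma, as the plot of marker levels by cell shows. Of other macrophage genes, Ptprc, Emr1, Mrc1 and C1qc did not overlap either. Cd68, at 7.71 RPKM in C36 and 0 in C54, lay there below the highest stromal cell (50.8 RPKM). C1qa, at 0.391 RPKM in C36, also lay below the highest stromal cell (0.755 RPKM). Sfpi1, the gene of the myeloid factor PU.1, was listed at 0 in C36 and C54.

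**Figure D1:**
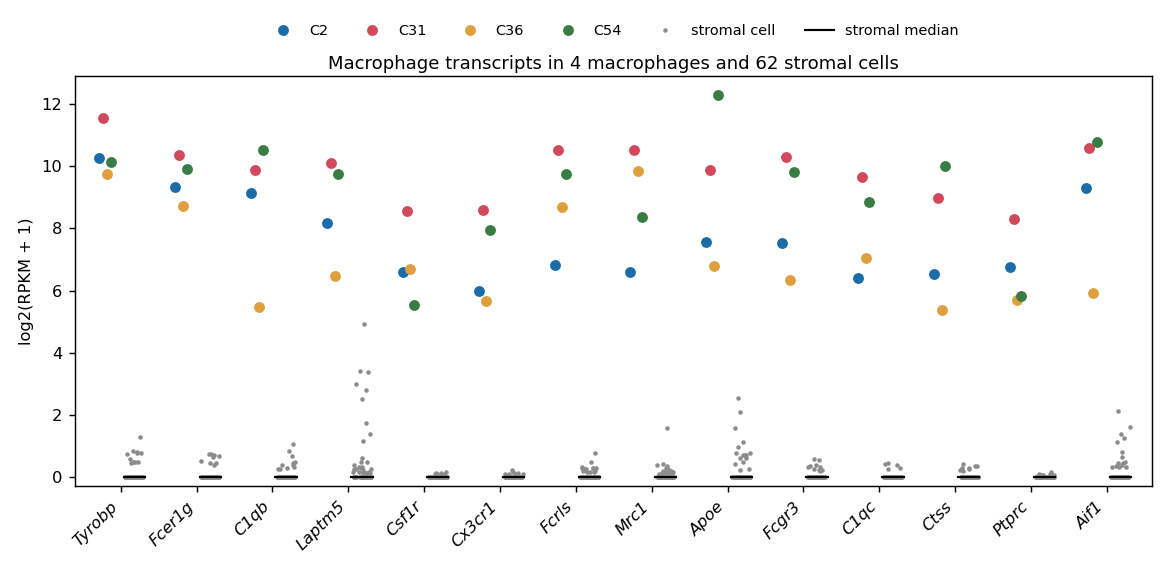
Levels of 14 macrophage transcripts on a log2(RPKM + 1) scale, with each of the 4 macrophages as a coloured point on the left of each gene and each of the 62 stromal cells as a grey point on the right with their median as a bar. Every macrophage lies above every stromal cell for each gene drawn, and Laptm5 has the highest stromal point, at 29.4 RPKM. Cd68, C1qa and Sfpi1, for which this does not hold, are not drawn.

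In mm9 coordinates as the table gives them, Tyrobp spans chr7:31198807-31202598 on the plus strand, Fcer1g chr1:173159703-173164480 on the minus strand, C1qb chr4:136436061-136442092 on the minus strand, Laptm5 chr4:130469249-130492063 on the plus strand and Cx3cr1 chr9:119957811-119977400 on the minus strand. Each is the span of the whole transcript, exons and introns.

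Across all genes, macrophages and stromal cells were compared by the mean of log2(RPKM + 1) in each class, a scale that understates the difference of low genes. Of 22869 genes, 9362 entered, by reaching 1 RPKM in at least 2 macrophages or in at least 10% of the stromal cells. A gene that entered only through the macrophages had to be higher in them, so the counts below are descriptions. In the macrophages, 589 genes (6.29%) were higher by at least 2 log2 units and 443 (4.73%) were lower by at least 2. These percents are of the genes that entered, while the counts for gene lists below are out of all members in the table. On that base, with no filter, 604 of all 22869 genes were higher by at least 2 and 443 were lower. The median difference of all genes that entered was -0.35. In 47 genes (0.502%) every macrophage lay above every stromal cell, while 0 genes were listed at 0 in all 4 macrophages and at 1 RPKM in at least 80% of the stromal cells.

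**Figure D2:**
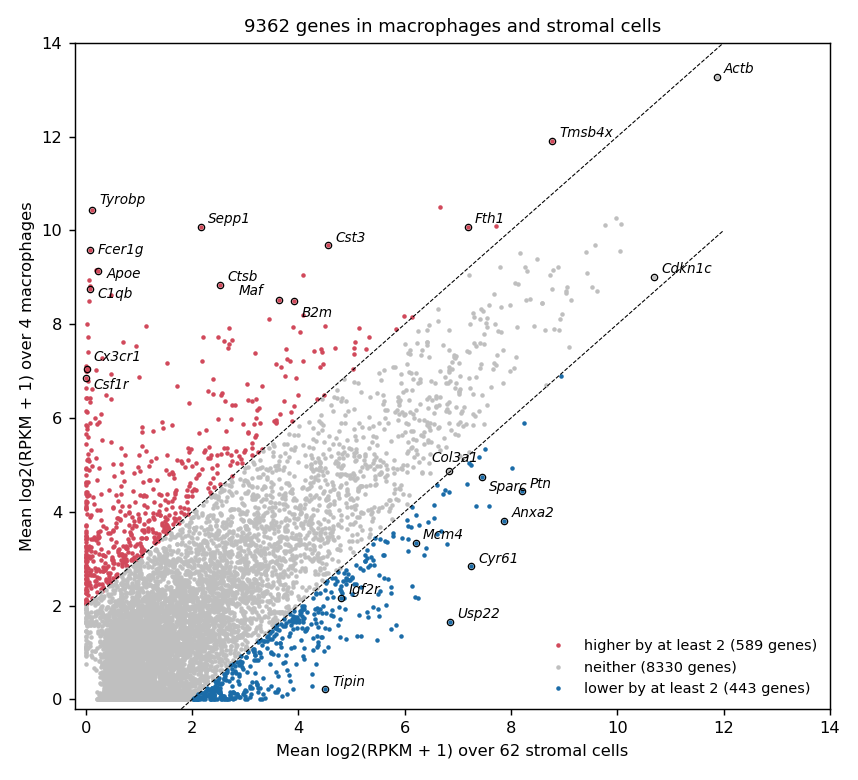
Mean log2(RPKM + 1) of 9362 genes over the 4 macrophages (vertical axis) against the mean over the 62 stromal cells (horizontal axis), with dashed lines at differences of 2 and -2. The 589 higher genes crowd the left edge, where stromal means are near 0, and the 443 lower genes lie along the lower right.

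The 47 genes without overlap include Tyrobp, whose lack of overlap and difference of 10.31 were set by the choice of cells, and 46 others. The largest differences among these 46 belonged to Fcer1g (9.49), Aif1, an actin-bundling protein of macrophages (8.96), Apoe, the carrier of cholesterol between cells (8.90), Fcrls, an Fc receptor-like secreted protein (8.88), and Mrc1, the mannose receptor (8.74). Apoe had the widest range of these, at 187, 934, 110 and 5046 RPKM in C2, C31, C36 and C54, against at most 4.78 RPKM in stromal cells. Mrc1 stood at 95.4, 1459, 912 and 326 RPKM, against at most 1.98 RPKM in stromal cells. Actb, the cytoskeletal actin gene, was also among the 47, at 13719, 7040.3, 7343 and 13317 RPKM in the macrophages against 3759 RPKM in the median and 6536 RPKM in the highest stromal cell. Its difference was 1.40, below the size of 2 used for a higher gene.

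Adaptors that carry an ITAM, the short tyrosine motif through which Fc and related receptors signal, and the Fc receptors themselves were higher by at least 2 in 10 of 21 genes of the list found in the table, with 0 lower. The median of the 12 that entered was 4.38, against 2.02 over all 21. Tyrobp, which chose the cells, is one of them, and without it 9 of 20 were higher with a median of 3.83 over the 11 that entered. Fcgr3, a receptor for antibody that signals through Fcer1g, stood at 183, 1264, 79.4 and 897 RPKM in C2, C31, C36 and C54, against at most 0.501 RPKM in stromal cells. Fcgr1, the high-affinity antibody receptor, stood at 77.6, 255, 100.5 and 176 RPKM, against at most 0.146 RPKM. Fcgr2b, the inhibitory antibody receptor, stood at 14.5, 127, 7.32 and 53.3 RPKM and was listed at 0 in all 62 stromal cells. RNA of activating and inhibitory receptors was thus listed together in each of the 4 cells. Levels within the Fcgr family are uncertain, because the handling of reads that map to several genes is not known. Sirpa, the receptor for the CD47 signal that restrains uptake, stood at 58.5, 235, 34.4 and 389 RPKM, against a highest stromal value of 96.3 RPKM, so it overlapped.

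The promoters of such genes are known to hold short purine-rich elements that the myeloid factor PU.1 binds. The letters GAGGAAG, searched on both strands in the 250 bases before the transcription start in RefSeq promoters (GRCm38.p6), occurred in 7 of the 35 non-overlapping genes with a promoter in the table (20%), in 12.6% of the 7493 genes that entered and have one, and in 10.6% of all 32851 promoters. The 100 bases next to the start are shown for 4 of the 7 genes, because they include a marker, the mannose receptor and the Fc receptors Fcgr1 and Fcgr3, and for 2 markers in which the letters are absent from this window. The letters were also absent from the 250 bases before the start of Fcgr2b. Capitals mark CTTCCTC, which is GAGGAAG read on the other strand.
Laptm5: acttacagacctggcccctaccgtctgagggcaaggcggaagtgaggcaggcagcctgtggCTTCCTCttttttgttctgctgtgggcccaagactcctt
Mrc1: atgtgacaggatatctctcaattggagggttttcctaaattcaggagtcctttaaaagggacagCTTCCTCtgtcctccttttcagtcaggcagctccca
Fcgr1: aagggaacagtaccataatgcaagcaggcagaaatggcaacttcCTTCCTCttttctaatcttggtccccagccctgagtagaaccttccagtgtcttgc
Fcgr3: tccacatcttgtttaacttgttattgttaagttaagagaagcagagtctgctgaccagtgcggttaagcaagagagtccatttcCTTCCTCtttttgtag
Fcer1g: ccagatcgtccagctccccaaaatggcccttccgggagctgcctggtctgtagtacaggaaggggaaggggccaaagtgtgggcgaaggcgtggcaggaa
C1qb: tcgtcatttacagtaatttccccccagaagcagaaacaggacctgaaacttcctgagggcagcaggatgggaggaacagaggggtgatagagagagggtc

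In GRCm38.p6 these windows are chr4:130913216-130913315 on the plus strand for Laptm5, chr2:14229314-14229413 on the plus strand for Mrc1, chr3:96293970-96294069 on the minus strand for Fcgr1, chr1:171059395-171059494 on the minus strand for Fcgr3, chr1:171234350-171234449 on the minus strand for Fcer1g and chr4:136886201-136886300 on the minus strand for C1qb. The first base of the letters lies 39 bases before the start in Laptm5, 36 in Mrc1, 56 in Fcgr1 and 16 in Fcgr3. A match describes the letters only. Sfpi1, the gene of PU.1, was itself low, at 0.775, 8.32, 0 and 0 RPKM in C2, C31, C36 and C54, and was listed at 0 in all 62 stromal cells.

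Complement genes were higher by at least 2 in 8 of 22, with 0 lower and a median of 5.04 over the 10 that entered, against 0.34 over all 22. C1qc, a further chain of C1q, stood at 84.04, 814, 132 and 466 RPKM, against at most 0.359 RPKM in stromal cells. C1qa, the remaining chain, stood at 34.4, 348, 0.391 and 320.1 RPKM, so it was nearly missing from C36 although C1qb and C1qc were not. C3ar1, the receptor for the complement fragment C3a, stood at 16.7, 222, 31.6 and 85.5 RPKM, against at most 0.0568 RPKM. All 3 C1q chains were thus present in 3 of the 4 macrophages.

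Lysosomal hydrolases and membrane proteins were higher by at least 2 in 18 of 40 genes, with 0 lower. Their median was 2.15 over the 34 that entered, against 1.74 over all 40. Cell by cell, the median of those that entered was 2.36, -0.49, 2.87 and 3.78 in C2, C31, C36 and C54. Ctss, a cathepsin of antigen-presenting cells, stood at 91.8, 507, 40.7 and 1041 RPKM, against at most 0.346 RPKM in stromal cells. Ctsb, a cathepsin that most tissues make, stood at 133, 724, 389 and 1165 RPKM, against a stromal median of 5.09 RPKM and a highest stromal cell of 73.8 RPKM. Both classes hold lysosomes, and Ctsb did not overlap all the same. Grn, the precursor of lysosomal granulins, stood at 189.7, 260.1, 145 and 271 RPKM, and 2 stromal cells lay above all 4 macrophages.

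Lipid transport and eicosanoid genes were higher by at least 2 in 13 of 28, with 0 lower. Beside Apoe, they included Abca1, which exports cholesterol, at 70.3, 53.4, 41.6 and 125 RPKM, against at most 47.5 RPKM in stromal cells. Lpl, which frees fatty acids from lipoproteins, stood at 164, 212, 0.466 and 137 RPKM, so 3 macrophages were high and C36 was not. Iron and heme genes were higher by at least 2 in 8 of 19, with 0 lower. Slc40a1, the iron exporter ferroportin, stood at 260.5, 26.2, 315 and 394 RPKM, against a stromal median of 31.3 RPKM. C31 was thus below the stromal median while the other 3 macrophages were far above it. Fth1, the heavy chain of the iron store ferritin, stood at 2983, 731, 325 and 1927 RPKM, against a stromal median of 159 RPKM and a highest stromal cell of 883 RPKM.

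Chemokines and their receptors were higher by at least 2 in 11 of 27 genes, with 0 lower. Their median was 4.12 over the 13 that entered, against 0.88 over all 27. Cell by cell, the median of those that entered was -0.002, 7.12, 5.66 and 3.94 in C2, C31, C36 and C54. Ccl12, an attractant of monocytes, stood at 45.02, 1083, 59.2 and 17.5 RPKM and was listed at 0 in all 62 stromal cells. Ccl2, a close relative, stood at 25.7, 3436, 475 and 0 RPKM, against at most 0.931 RPKM. Pf4, a chemokine also stored in platelets, stood at 0, 3094, 1065 and 15.3 RPKM, against at most 1.18 RPKM. C31 was the highest of the 4 for each of these 3 chemokines. Among cytokines and growth factors, 4 of 28 were higher by at least 2 and 1 was lower. The median of the 12 that entered was -0.46, near the -0.35 of all genes that entered. Igf1, a growth factor, stood at 253, 76.4, 34.3 and 281 RPKM, against a stromal median of 17.8 RPKM and a highest stromal cell of 623 RPKM. The lower gene was Vegfa, the endothelial growth factor, at 0, 0.190, 0.0790 and 0.131 RPKM against a stromal median of 5.18 RPKM.

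Transcription factors known from macrophages were higher by at least 2 in 8 of 26, with 0 lower and a median of 1.87 over the 17 that entered, which was 1.11 without C54, and 1.24 over all 26. Maf stood at 319.9, 176, 414 and 747 RPKM, against a stromal median of 21.1 RPKM, and no stromal cell lay above the highest macrophage. Irf8, needed for monocytes and microglia, stood at 10.9, 324, 30.5 and 20.4 RPKM, against at most 5.87 RPKM in stromal cells. Irf5 was uneven, at 526, 0, 22.1 and 5.07 RPKM. Genes of the tissue macrophage and microglia list were higher by at least 2 in 14 of 29, with a median of 3.24 over the 18 that entered and 2.04 over all 29, and 1 was lower. That gene was Olfml3, a secreted protein, at 0.397, 0, 0.364 and 0 RPKM against a stromal median of 6.69 RPKM. Emr1, which encodes the macrophage antigen F4/80, stood at 7.54, 484, 1.88 and 9.10 RPKM, against at most 0.125 RPKM in stromal cells.

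General leukocyte genes were higher by at least 2 in 11 of 23. Their median was 3.21 over the 14 that entered and 1.99 over all 23. Cell by cell, the median of those that entered was 4.26, 0, 4.83 and 2.85 in C2, C31, C36 and C54. Of the 23 genes, 14, 7, 14 and 10 reached 1 RPKM in the same order. Ptprc, which encodes the leukocyte antigen CD45, stood at 107, 315, 50.3 and 55.3 RPKM, against at most 0.123 RPKM in stromal cells. Leukocyte actin and motility genes were higher by at least 2 in 16 of 26, with a median of 2.86 over the 21 that entered and 2.35 over all 26. Tmsb4x, which binds free actin, stood at 3077, 5943, 2320.4 and 5203 RPKM, against a stromal median of 500.1 RPKM and a highest stromal cell of 1193 RPKM. Rac2, the blood cell form of the Rac switch, stood at 26.3, 70.1, 129 and 24.1 RPKM, against at most 0.0945 RPKM. None of the genes of these 2 lists was lower by at least 2. The receptor axis of CSF1 and cytokines had 9 of 22 genes higher and 0 lower. Its median was 2.11 over the 17 that entered, which was 1.10 without C2, and 1.65 over all 22. Cell by cell, the median of those that entered was 3.17, 0.14, 0.05 and 2.51 in C2, C31, C36 and C54. The ligand Csf1 reached 1 RPKM in 22 of the 62 stromal cells and Il34, the other Csf1r ligand, was listed at 0 in both classes.

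**Figure D3:**
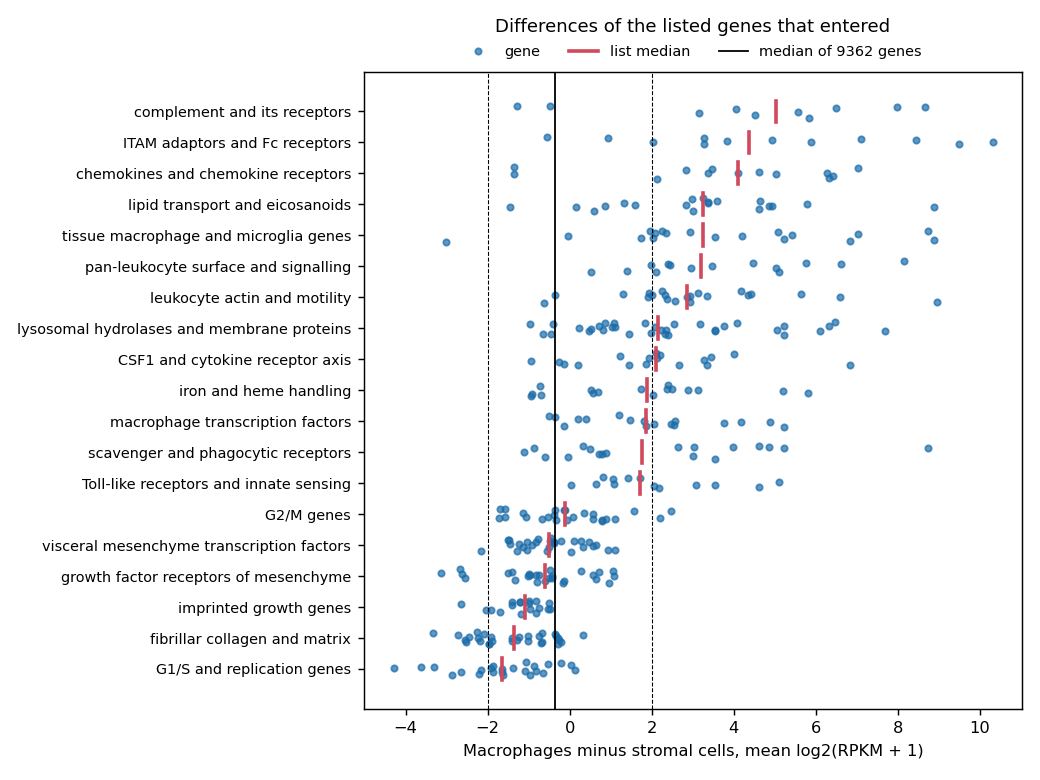
Difference between macrophages and stromal cells in mean log2(RPKM + 1) for the members of 19 gene lists that entered, 1 point per gene, with a red bar at the list median, a black line at the median of all 9362 genes (-0.35) and dashed lines at -2 and 2. The macrophage lists drawn have medians from 1.71 to 5.04. The stromal and replication lists have medians from -1.64 to -0.49, with the G2/M list at -0.12 between them. Not drawn are cytokines and growth factors made by macrophages (-0.46), leukocyte integrins (0.98), and monocyte and granulocyte genes (1.07). Also not drawn are MHC class II (3.62), NADPH oxidase (3.02), MHC class I (2.80) and purinergic genes (2.17).

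Many listed genes were at 0 in all 4 macrophages, as were 57.5% of all 22869 genes and 37.1% of the 15464 genes above 0 in any cell. Of the 23 monocyte and granulocyte genes, 17 were listed at 0 in all 4 macrophages, among them Ccr2, Ly6c2, S100a8, S100a9, Mpo and Elane, and 2, 2, 2 and 4 reached 1 RPKM in C2, C31, C36 and C54. The chemokine list, with 11 of 27 at 0, and the complement list, with 9 of 22, held smaller shares of such genes than the 57.5% of all genes. Lyz2, lysozyme, was the 1 monocyte and granulocyte gene higher by at least 2. It stood at 522, 315, 18.5 and 88.6 RPKM, against at most 49.7 RPKM in stromal cells. Of the 13 genes of MHC class II and antigen processing, 9 were listed at 0 in all 4 macrophages, including H2-Aa, H2-Ab1, H2-Eb1 and the class II activator Ciita. Cd74, the class II chaperone, stood at 0, 21.9, 0 and 0 RPKM. B2m, the light chain of class I, stood at 340.2, 463, 216 and 496 RPKM, against a stromal median of 25.3 RPKM and a highest stromal cell of 251 RPKM. A value of 0 means only that a gene is listed at 0.

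Among genes in no list, the largest differences belonged to Sepp1, the selenium carrier selenoprotein P (7.91), Lst1, a leukocyte surface protein (7.38), Pld4, a lysosomal nuclease (7.03), and the membrane genes Ms4a7 and Ms4a6d (6.99). Sepp1 stood at 518, 2514, 414 and 2483 RPKM, against a highest stromal cell of 269.9 RPKM. Mt1, a metallothionein that binds zinc, stood at 89.03, 84.9, 32.5 and 90.96 RPKM, against at most 0.423 RPKM. Lst1 stood at 146, 355, 126 and 125 RPKM, against at most 1.54 RPKM. None of these 3 genes overlapped with the stromal cells.

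Values differed from macrophage to macrophage. A gene was counted as held by macrophages only if it reached 10 RPKM in at least 1 of them and stayed under 1 RPKM in all 62 stromal cells, a condition set after the values were seen. Of 223 such genes, 19 were held by all 4 macrophages, 19 by 3, 49 by 2 and 136 by 1. The genes held by 1 cell were spread over the cells, with 36 in C2, 35 in C31, 28 in C36 and 37 in C54. Pairs of macrophages shared 31 to 46 genes, the pair of C2 and C54 the most. Among all genes that entered, the median SD over the 4 macrophages was 1.58 log2 units. A gene missed in a cell counts as not held by it. No like count or SD of stromal cells was set beside these. Whether the macrophages differed more than other cells was therefore not tested.

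Among genes of at least 50 RPKM in 1 macrophage and of 1 RPKM in at most 10% of the stromal cells, the largest spread among the macrophages was that of Pf4, Ccl2, Il1b and Cd68. Il1b, an inflammatory cytokine, stood at 0, 574, 0.157 and 253 RPKM. Cd68, a lysosomal glycoprotein used as a macrophage marker, stood at 364, 1395, 7.71 and 0 RPKM, so it was listed at 0 in C54, the macrophage with the highest Apoe. Several genes, chosen after their values were seen, were high in 1 macrophage. C36 alone had Folr2, a folate receptor (158 RPKM), Lyve1, a hyaluronan receptor of perivascular macrophages (138 RPKM), and Mmp9, a gelatinase (106 RPKM). C54 alone had Spp1, osteopontin (490.04 RPKM), Nupr1 (569 RPKM) and Itgam, an integrin chain (36.4 RPKM), and held most of Gpr34 (343 RPKM). C31 alone had Slc2a5, a fructose transporter (319 RPKM), and Arhgap15 (619 RPKM). C2 alone had Tlr13, a sensor of bacterial RNA (183 RPKM). In each of these genes the other 3 macrophages were at or below 1.16 RPKM. Cd79b, a chain of the B cell receptor complex, stood at 463, 0, 0 and 155 RPKM, while the other 19 lymphoid and dendritic genes of the list were listed at 0 in all 4 cells.

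**Figure D4:**
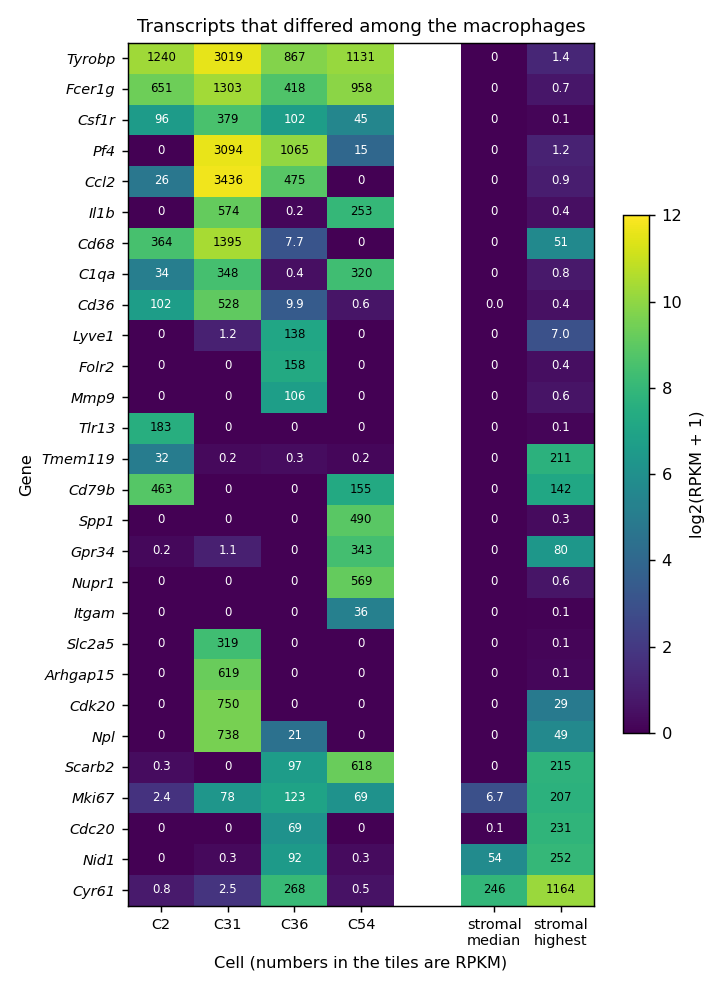
RPKM of 28 genes in the 4 macrophages (left columns), with the median and highest of the 62 stromal cells (right columns), coloured on a log2(RPKM + 1) scale. Tyrobp, Fcer1g and Csf1r are high in each macrophage, and blocks of genes below them are high in 1 or 2 macrophages only.

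Matrix genes were lower by at least 2 in 9 of 34, with 0 higher and a median of -1.35 over the 30 that entered. Without Col3a1, which chose the stromal cells, the count was 9 of 33 and the median -1.29. Nid1, a basement membrane linker, stood at 0, 0.250, 92.4 and 0.288 RPKM, against a stromal median of 54.2 RPKM. Sparc, a collagen-binding protein, stood at 23.5, 2.86, 98.4 and 53.3 RPKM, against a stromal median of 209 RPKM. Col1a2, a chain of type I collagen, stood at 174, 21.2, 26.9 and 8.42 RPKM, against a stromal median of 174 RPKM. C2 therefore held as much Col1a2 as the median stromal cell. Col3a1, the gene that chose the stromal cells, stood at 57.7, 2.90, 142 and 21.9 RPKM in the macrophages, so that the Col3a1 of C36 was above the stromal median of 122 RPKM.

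Growth factor receptors of mesenchyme were lower by at least 2 in 4 of 28, with 0 higher and a median of -0.59 over the 27 that entered, which was -1.002 without C36 and -0.04 by the median over cells. The 4 were Fgfr1, Pdgfrb, Pdgfra and Ntrk2. Fgfr1, a receptor for fibroblast growth factors, stood at 0.801, 0, 7.23 and 1.02 RPKM, against a stromal median of 23.1 RPKM. Mesenchymal transcription factors were lower by at least 2 in 1 of 33, Hoxa5, with 0 higher. Their median was -0.49 over the 28 that entered, which was -0.25 without C31. Of all genes that entered, 4.73% were lower by at least 2 and the median was -0.35, so this list stood near all genes. Imprinted growth genes were lower by at least 2 in 2 of 20, with 0 higher and a median of -1.09 over the 18 that entered. The 2 were Igf2r, which clears IGF2 (5.06, 0.339, 9.01 and 4.01 RPKM, against a stromal median of 29.5 RPKM), and Grb10, which dampens insulin and IGF signalling. Cdkn1c, a cell cycle inhibitor, stood at 435, 227, 1104 and 635 RPKM, against a stromal median of 1781 RPKM. The growth factor gene Igf2 stood at 17.9, 139, 96.3 and 30.5 RPKM, against a stromal median of 99.4 RPKM, and the noncoding RNA H19 at 272, 215, 161 and 44.8 RPKM, against 212 RPKM. Both imprinted RNAs were thus present in every macrophage.

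**Figure D5:**
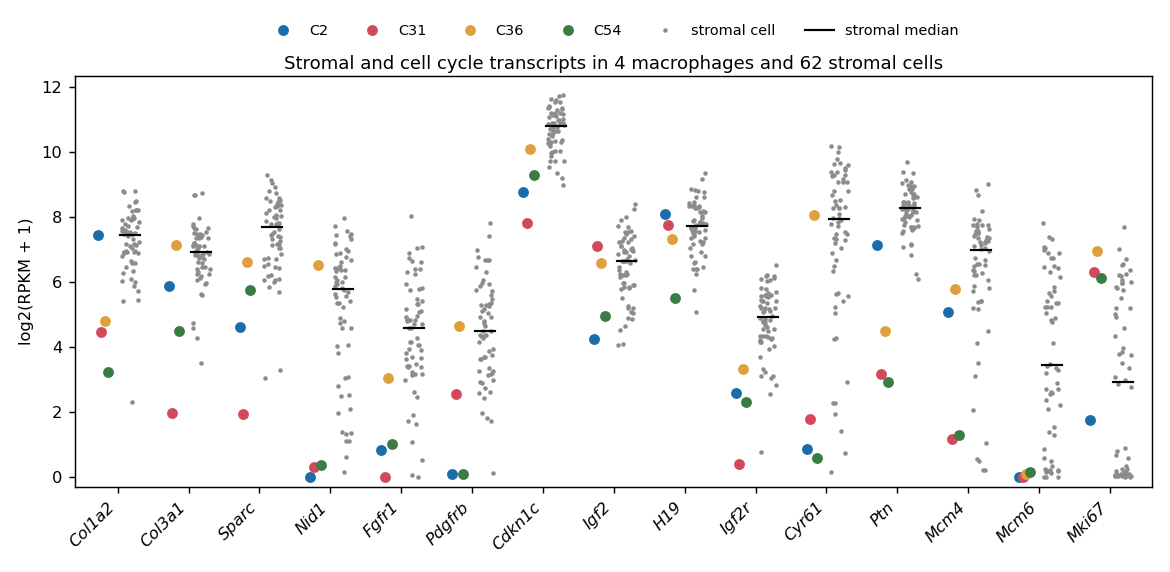
Levels of 15 stromal, imprinted and cell cycle transcripts on a log2(RPKM + 1) scale, with the 4 macrophages as coloured points on the left of each gene and the 62 stromal cells as grey points on the right with their median as a bar. Every macrophage holds Cdkn1c, Igf2 and H19, and C36 lies nearest the stromal median for Nid1, Pdgfrb and Cyr61.

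Stromal transcripts were unevenly spread over the macrophages. The 4 stromal lists (matrix, transcription factors, imprinted genes and receptors) hold 34 genes with a stromal median of at least 10 RPKM. Of these, 26, 28, 32 and 26 reached 1 RPKM in C2, C31, C36 and C54, against 27 to 34 in the stromal cells. The median level as a percent of the stromal median was 45.2% in C2, 13.7% in C31, 96.1% in C36 and 17.7% in C54, against 49.5% to 150.4% in the stromal cells. By this pooled median C36 lay within the stromal range and the other 3 lay below it. List by list, C2 lay within it for transcription factors (119.9%, stromal 26.1% to 187.3%), imprinted genes (37.5%, 26.8% to 188.9%) and receptors (48.2%, 16.6% to 434.7%). Only for matrix, at 0.452%, was C2 below the stromal lowest of 14.8%. C54 lay within it for transcription factors (28.2%) and below it for the other lists, and C31 lay below it for all 4. Without C36, 721 genes were lower by at least 2 in place of 443. Whether a capture site held more than 1 cell, or free RNA reached the macrophages, was not tested.

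Outside the lists, the largest negative differences belonged to Usp22, a histone deubiquitinase (-5.21), Srek1, a splicing factor (-4.58), Cyr61, a matricellular target of YAP (-4.41), Gpx8 (-4.25) and Igfbp5, an IGF binding protein (-4.24). Usp22 stood at 0.0773, 0.114, 57.2 and 0.390 RPKM, against a stromal median of 134 RPKM. Cyr61 stood at 0.847, 2.49, 268 and 0.510 RPKM, against a stromal median of 246 RPKM. For Usp22, C36 was within the stromal range and the other 3 macrophages lay below the lowest stromal cell (6.75 RPKM). For Cyr61, the stromal range of 0.121 to 1164 RPKM held all 4 macrophages. There C36 was above the stromal median and the other 3 macrophages were at 2.49 RPKM or less. Ptn, the growth factor pleiotrophin, stood at 140.3, 8.0, 21.5 and 6.71 RPKM, against a stromal median of 309 RPKM. Yap1, the effector of the Hippo pathway, stood at 0.0839, 0.122, 4.84 and 0.167 RPKM, against a stromal median of 31.03 RPKM.

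Genes of G1/S and DNA replication were lower by at least 2 in 7 of 24, with 0 higher. Their median was -1.64, and -2.29 without C36. Cell by cell, the median was -2.19, -2.51, -0.47 and -1.94 in C2, C31, C36 and C54. The value of C36 was near the -0.35 of all genes that entered. Of the 24 genes, 4, 4, 13 and 6 reached 1 RPKM in the same order. The stromal cells had 5 to 20 such genes, with a median of 14. Mcm3 stood at 55.004 RPKM in C36, above the stromal median of 18.7 RPKM, and under 1 RPKM in the other macrophages. Tipin, a protector of replication forks, had the largest difference, -4.29, and did not pass 0.420 RPKM in any macrophage, against a stromal median of 46.3 RPKM. Mcm6, a subunit of the replicative helicase, stood at 0, 0, 0.0729 and 0.119 RPKM, against a stromal median of 10.04 RPKM. Under 1 RPKM in all 4 macrophages and at 1 RPKM in at least 80% of stromal cells were 3 genes (0.032%), a condition added after the planned one gave 0. They were Lig1, the replicative DNA ligase, Hells, a chromatin remodeller of dividing cells, and Zfp260. Of the G2/M genes, which all entered, 2 of 25 were higher by at least 2 and 0 were lower. That share of higher genes was near the 6.29% of all genes that entered. Their median of -0.12 depended on single cells, at 0.77 without C2, -0.04 without C31, -1.13 without C36 and 0.17 without C54. Mki67, a marker of cycling cells, stood at 2.43, 78.2, 123 and 69.3 RPKM, against a stromal median of 6.66 RPKM, and Nusap1, a spindle protein, was the other. Of the 25 genes, 3, 13, 20 and 10 reached 1 RPKM in C2, C31, C36 and C54, against 0 to 25 in the stromal cells.

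Markers of other cell types were at or near 0 in the macrophages for epithelium, endocrine cells, endothelium and neural crest, while single genes of the other lists were present. Epithelial and endocrine genes reached 1 RPKM in 0 of 14 and 0 of 15 in each macrophage. Their summed levels were 0.322 RPKM or less in each macrophage, against 0 to 687 RPKM (epithelial) and 0 to 39.1 RPKM (endocrine) in the stromal cells. Endothelial genes summed to at most 4.47 RPKM, in C54, with Eng as the 1 gene of 14 above 1 RPKM, against 0 to 25.6 RPKM in stromal cells. Emcn and Chga were listed at 0 in all 4 macrophages. Of the 14 erythroid genes only Tfrc, the transferrin receptor, reached 1 RPKM, at 75.5 RPKM in C36, against a summed level of 0 to 149.8 RPKM in the stromal cells. Of the 17 megakaryocyte and mast cell genes only Pf4 did, and the list summed to 0.387, 3094, 1065 and 15.3 RPKM in C2, C31, C36 and C54, against 0 to 86.7 RPKM in the stromal cells. The lymphoid and dendritic list summed to 463, 0, 0 and 155 RPKM, all of it Cd79b, against 0 to 171 RPKM in the stromal cells. Neural crest genes summed to at most 0.268 RPKM. Mesothelial genes summed to 0.223, 14.7, 61.3 and 0.251 RPKM, against 0 to 416 RPKM in the stromal cells, and only Wt1 reached 1 RPKM, in C31 and C36. The part of these markers in the results was not tested.

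Traces of macrophage transcripts in the stromal cells differed with the library indexes. C31 and C36 shared their second index, as did C2 and C54, and 31 of the 62 stromal cells shared a first or second index with a macrophage. At a level above 0, at least 1 of the 6 markers was found in 28 of the 31 stromal cells that shared an index (90.3%, exact Clopper-Pearson interval 74.2% to 98.0%) and in 8 of the 31 that shared none (25.8%, 11.9% to 44.6%). At 1 RPKM or more the counts were 7 of 31 (22.6%, 9.59% to 41.1%) and 4 of 31 (12.9%, 3.63% to 29.8%). In the cells that shared none, the 8 above 0 and the 4 at 1 RPKM were all due to Laptm5, at up to 6.92 RPKM. Laptm5 was above 0 in 20 of the 31 that shared an index. Fcer1g, C1qb, Csf1r and Cx3cr1 were above 0 in 9, 11, 8 and 8 of 31 that shared an index and each in 0 of 31 that shared none. Tyrobp was above 0 in 11 of 31 that shared an index and in 0 of 31 that shared none. A count of 0 allows a share of up to 9.68% by the limit of 3 counts, and the exact interval reaches 11.2%. The intervals are at the 95% level and cover counting error only. The first index follows the plate column and the second the plate row, so index and position cannot be told apart. The highest Tyrobp among the stromal cells was 1.44 RPKM, against 867 RPKM in the lowest macrophage. Against the 31 stromal cells that shared no index, 65 genes lay without overlap in place of 47. Taking fewer stromal cells cannot lower this count, whatever their index, so it does not bear on the indexes. The part of shared indexes in the results was not tested.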

How the data were processed

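The deposited table holds RPKM values made by the authors for 29510 transcript rows and 81 cells; the unit is not written in it and was read from the values, which fall on steps of 1 read. CASAVA 1.8.2 and mm9 are listed per the submitters' processing notes. No source used here gives the aligner, the counter or the handling of reads that map to several genes, so levels of genes with near-identical copies (Fth1, Tmsb4x, Actb, and the H2, Fcgr, Ms4a and Ccl2 to Ccl12 families) are uncertain.

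Each gene was taken as its transcript row of highest mean, and a pseudocount of 1 was added before log2. Depth was estimated from the worth of 1 read, with GENCODE vM21 lengths and a tolerance of 0.15 read; between 78.0% and 86.4% of the low values in the stromal cells were whole. Python 3 with numpy, pandas and scipy was used, and the comparison was checked on simulated data. No doublet caller was run on so few cells.

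The members, the markers and the 36 gene lists, which overlap, were chosen with earlier results of these data known. Genes named are the markers, up to 6 members of largest difference per list and genes that mark other cell types, the 20 largest differences in each direction outside the lists, the 12 largest spreads among the macrophages and the genes of the rule, each in part. Emr1, Sfpi1, Cd74, Tmsb4x, Actb, Olfml3, Csf1, Il34, Igf2, H19, Lig1, Hells, Zfp260, Tmem119, Csf3r, the gene names at 0 and those said to be so in the text were picked with their values in view. The 4 shallow cells and the other cells of neither class entered no comparison. The listed genes Syk, Pirb, Flvcr1, H2-L, Zac1, Ahsp and Muc16 were not matched in the table. Reads carry no molecular identifiers, so intervals and the limit of 0 (3 counts) cover counting error only. Alternatives were another pseudocount, filter, row choice, scaling, summary and stromal class, and leaving out each macrophage. Some results are not reported here.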

Additional observations from a re-analysis of the deposited data

Results flagged for a closer look

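Of 124 genes whose values differ among the 4 macrophages and that the text or its figures use, 28 had 1 macrophage far from the other 3 on the log2(RPKM + 1) scale (a gap over Dixon's 95% critical share of the whole range). That critical share would flag about 1 in 20 groups of normally distributed values. A gene at 0 in 3 macrophages and above 0 in 1 passes it by construction, as Folr2, Spp1, Nupr1 and Arhgap15 did. The rate of 1 in 20 therefore does not hold here. Many of these genes were also chosen for their spread, so the flags are descriptions only. C36 stood apart in 12 of the 28, C54 in 7, C31 in 6 and C2 in 3.

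C36 stood high for the stromal genes Nid1 (92.4 RPKM), Pdgfra (3.18 RPKM), Usp22 (57.2 RPKM), Cyr61 (268 RPKM) and Yap1 (4.84 RPKM). It stood high for the cell cycle genes Mcm3 (55.004 RPKM) and Cdc20 (69.5 RPKM), and for Folr2 (158 RPKM), Lyve1 (138 RPKM) and Mmp9 (106 RPKM). It stood low for Lpl (0.466 RPKM) and Mt1 (32.5 RPKM). The part that stromal RNA has in the values of C36 was not tested.

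C54 stood high for Spp1 (490.04 RPKM), Nupr1 (569 RPKM), Gpr34 (343 RPKM), Itgam (36.4 RPKM), Csf3r (31.7 RPKM) and, near 0, Hells (0.116 RPKM), and low for Slco2b1, a carrier of organic anions (0.951 RPKM). C31 stood high for Cdk20 (749.9 RPKM), Arhgap15 (619 RPKM), Lst1 (355 RPKM), Slc2a5 (319 RPKM) and Cd74 (21.9 RPKM), and low for Slc40a1 (26.2 RPKM). C2 stood high for Tlr13 (183 RPKM) and Tmem119 (32.002 RPKM) and low for Mki67 (2.43 RPKM).

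Tyrobp was also found in 2 cells of neither class, above the highest stromal cell (1.44 RPKM). It stood at 88.5 RPKM in C3 and at 9.02 RPKM in C94. With an estimated 21711 reads in C3 and 202398 in C94, each value corresponds to about 1 read. C3 shared its plate column, which the first index follows, with C31. It shared its plate row, which the second index follows, with C2 and C54. C94 shared its plate column with C54. The part of shared indexes in these values was not tested. C3 also had Cx3cr1 at 27.1 RPKM and Laptm5 at 20.9 RPKM, each about 1 or 2 reads, and Apoe, Aif1 and Mrc1 at about 1 read each. C94 had C1qb at 9.55 RPKM, about 2 reads, and Apoe at 20.3 RPKM, about 5.78 reads.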

How the results depend on the processing

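The sizes of the differences depended on the pseudocount. With 0.1 in place of 1, the counts of higher and lower genes were 1136 and 1397, and with 10 the counts were 142 and 30, against 589 and 443. The share of called genes that were higher was thus 44.8% and 82.6%, against 57.1%. With the median over cells in place of the mean, 916 were higher. Leaving out each macrophage gave 668 to 762 higher genes, 418 to 721 lower genes (721 without C36) and 59 to 71 genes without overlap (71 without C31). Genes listed at 0 in every macrophage numbered 0 to 4, with 4 without C36 and 1 without C54. Genes under 1 RPKM in every macrophage numbered 5 to 29 when 1 was left out (29 without C36), 6 with transcripts summed, 7 against the stromal cells sharing no index and 0 at 90% of the stromal cells, the last 3 settings and the count itself chosen after seeing the data. The median SD over the macrophages was 2.75 and 0.56 with pseudocounts of 0.1 and 10, and 0.56 with no filter.

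List medians at a pseudocount of 0.1 were 5.53 for general leukocyte genes, 3.60 for transcription factors, 4.76 for tissue macrophage genes, 7.596 for complement, 6.86 for ITAM and Fc receptor genes, 4.50 for actin genes, -2.15 for matrix and -1.248 for growth factor receptors. At 10 they were 1.68 for tissue macrophage genes, 2.60 for complement, 2.21 for ITAM and Fc receptor genes, 1.37 for actin genes and -0.50 for matrix. With no filter, complement stood at 1.30 and tissue macrophage genes at 2.30, and tissue macrophage genes at 5.15 with a filter at 10 RPKM, at 3.96 with equal totals and at 3.34 to 4.64 with 1 macrophage left out (4.64 without C54). The median over cells gave -0.54 for matrix and 0 for mesenchymal transcription factors. The median of all genes was -0.14 at a pseudocount of 10, -0.10 with no filter and 0 by the median over cells. The sign turned without C31 for Arhgap15 (-0.00870), Cdk20 (-0.22) and Slc2a5 (-0.00290), and without C54 for Nupr1 (-0.019) and Spp1 (-0.027), while the highest values with another macrophage left out were 3.08, 2.97, 2.77, 3.03 and 2.95 for these genes in turn. A marker above 0 in place of 1 RPKM was found in 28 stromal cells sharing an index and 8 sharing none, where Laptm5 was the only marker. The causes were not tested. Of 108 named genes past 2 on either side, 68 stayed past 2 under every alternative run and 103 kept their sign.

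The macrophage values rest on 4 cells of 1 group, with no animal named, so no difference here has a check by replicates.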

Other observations

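Genes of the NADPH oxidase, which makes superoxide, were higher by at least 2 in 3 of 7. Cybb, its catalytic chain, stood at 12.7, 89.7, 5.40 and 22.4 RPKM in C2, C31, C36 and C54 and was listed at 0 in all 62 stromal cells. Cyba, its partner, stood at 509, 119, 148 and 398 RPKM, against a stromal median of 27.05 RPKM and a highest stromal cell of 310.3 RPKM, so it overlapped. Genes of Toll-like receptors and innate sensing were higher by at least 2 in 6 of 29, purinergic and ion channel genes in 4 of 16 and leukocyte integrins in 3 of 16, with 0 lower in these lists. Scavenger and phagocytic receptors were higher in 9 of 28 with 0 lower, and protease inhibitors and matrix proteases in 2 of 22 with 2 lower. With no filter, 604 of all 22869 genes were higher by at least 2 and 443 were lower. Cst3, the cathepsin inhibitor cystatin C, stood at 851, 2086, 104.5 and 2390 RPKM, against a stromal median of 38.6 RPKM and a highest stromal cell of 949 RPKM. It overlapped, with 42 of the 62 stromal cells below the lowest macrophage.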
